A study of Rattus norvegicus with 16 samples.

Results

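The circadian clock genes described here are the activators Bmal1 and Clock, the repressors Per1, Per2, Per3 and Cry1, the nuclear receptors Nr1d1 and Nr1d2, and the output factors Dbp and Tef. A probe belonged to a gene when its RefSeq accession matched that gene's symbol in a gene table, and all 10 genes were found, on 16 of the 30367 probes of the array. They are 10 of the 15159 gene symbols that could be named. Dbp and Per3 had 3 probes each, Bmal1 and Clock had 2 each, and the other 6 genes had 1 each. Where a gene had several probes, its values are those of the probe with the highest mean over all rats.

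The clock is a feedback loop of transcription. BMAL1 and CLOCK bind E-box sequences and drive the Per, Cry and Nr1d genes as well as Dbp; PER and CRY proteins then block BMAL1 and CLOCK, and the NR1D receptors (REV-ERBs) repress Bmal1 itself. Nearly every tissue holds such a loop, the colon included, and Bmal1 RNA peaks at about the time of day when Dbp and Nr1d1 RNA are low.

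The arrays measured RNA of normal distal colon from 16 male rats, the F1 offspring of ACI and F344 parents. Untreated wild type rats, wild type rats given dextran sodium sulfate (DSS), untreated Pirc rats and Pirc rats given DSS made up 4 groups of 4 rats each. Pirc rats carry 1 mutant copy of Apc, the tumor suppressor whose loss starts colonic adenomas. DSS, which injures and inflames the colon lining, was in the drinking water at 4% from day 40 to day 47 and again from day 54 to day 61. All rats were 97 days old when sampled, 36 days after the last DSS, and were kept under 12 hours of light and 12 hours of dark. The study's methods place the collection of tumors from untreated animals in a limited part of the afternoon; for the normal colon of these 16 rats, DSS-treated ones included, no hour is given per rat, and the part of sampling time in the levels below was not tested.

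Levels are log2 intensities relative to the 75th percentile of the same array, so 0 is a bright probe and each step of 1 is a doubling. Of the 16 member probes, 15 were well above background on all 16 arrays, and a second Per3 probe was so on 15. The 13 measured markers of colon epithelium were well above background on every array, the brightest of them Lgals4. The arrays lay on 2 slides, with 2 rats of every group on each: rats 11 to 18 on slide 1 and rats 19 to 26 on slide 2. Since every group filled 1 column of arrays, an effect of column cannot be told apart from one of group. The whole-array profile of 14 rats was most like that of a rat of the same group. The other two, untreated Pirc rat 23 and DSS-treated wild type rat 26, were most like untreated wild type rat 25.

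Bmal1, the activator whose RNA cycles, varied widely between rats of the same group. In untreated wild type rats 13, 17, 21 and 25 its level was -0.70, -0.32, -0.44 and 0.28, and in DSS-treated wild type rats 14, 18, 22 and 26 it was -0.95, -1.37, -1.30 and 0.58. In untreated Pirc rats 11, 15, 19 and 23 it was -0.32, -0.02, 0.83 and -1.46, and in DSS-treated Pirc rats 12, 16, 20 and 24 it was -0.43, -0.28, -0.51 and -1.68. Rats 19, 26 and 25 were the highest and rats 24 and 23 the lowest, and all 4 groups overlapped. Group means ran from -0.24 ± 0.95 (SD, n = 4) in untreated Pirc rats through -0.29 ± 0.41 and -0.72 ± 0.64 to -0.76 ± 0.92 in DSS-treated wild type rats, an order in which neighbours differed by less than the larger of their SDs. The second Bmal1 probe followed the first over the 16 rats (r = 0.987). Clock, the partner of BMAL1, lay between -3.93 and -3.14, with a within-group SD of 0.24 against 0.76 for Bmal1; the median of the 19396 probes well above background on all arrays was 0.25.

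Among the repressors Per2 had a within-group SD of 0.58. Per2 stood at -1.16, -2.07, -1.49 and -2.25 in untreated wild type rats 13, 17, 21 and 25, and at -1.52, -1.27, -0.98 and -2.71 in DSS-treated wild type rats 14, 18, 22 and 26. It stood at -1.51, -1.72, -1.60 and -1.45 in untreated Pirc rats 11, 15, 19 and 23, and at -3.08, -2.64, -2.69 and -1.47 in DSS-treated Pirc rats 12, 16, 20 and 24. DSS-treated Pirc rats 12, 16 and 20 lay below every untreated Pirc rat, while rat 24 lay among them. The mean was lowest in DSS-treated Pirc rats, -2.47 ± 0.70 (SD, n = 4), and highest in untreated Pirc rats, -1.57 ± 0.12; DSS-treated and untreated wild type rats lay between, at -1.62 ± 0.76 and -1.74 ± 0.51, each less than its own SD from the untreated Pirc mean. Per1 lay between -4.84 and -4.27 over all rats and Cry1 between -1.29 and -0.05, with within-group SDs of 0.155 and 0.305. Per3 depended on the probe: the brightest lay between -2.83 and -2.09 with a within-group SD of 0.21, while the SDs of the other 2 were 0.58 and 0.79, and these followed the first over the 16 rats with r = 0.878 and 0.868.

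Nr1d1 and Nr1d2 encode the receptors REV-ERBα and REV-ERBβ, which repress Bmal1. Nr1d1 stood at -0.86, -0.41, 0.61 and -1.33 in untreated wild type rats 13, 17, 21 and 25 and at -0.16, -0.11, -0.26 and -0.83 in DSS-treated wild type rats 14, 18, 22 and 26. It stood at -0.08, -1.11, -3.76 and -1.32 in untreated Pirc rats 11, 15, 19 and 23 and at -2.19, -2.46, -3.67 and -1.68 in DSS-treated Pirc rats 12, 16, 20 and 24. All 4 DSS-treated Pirc rats lay below all 4 DSS-treated wild type rats, whereas the untreated Pirc and wild type rats overlapped. How many of all probes separated the DSS-treated groups in this way was not counted, so the separation cannot be read as particular to Nr1d1. Nr1d2 showed the same order of group means, from -3.63 ± 0.63 (SD, n = 4) in DSS-treated wild type rats through -3.80 ± 0.66 in untreated wild type rats and -4.41 ± 0.68 in untreated Pirc rats to -4.94 ± 0.59 in DSS-treated Pirc rats, each within 1 SD of the next. For Nr1d2 the DSS-treated Pirc rats (-5.67 to -4.23) and wild type rats (-4.52 to -3.05) overlapped.

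Dbp and Tef encode PAR bZIP transcription factors that carry the rhythm to output genes. Dbp stood at 3.24, 2.96, 3.54 and 1.25 in untreated wild type rats 13, 17, 21 and 25 and at 3.63, 3.50, 4.07 and 1.07 in DSS-treated wild type rats 14, 18, 22 and 26. It stood at 2.38, 2.16, 0.29 and 3.17 in untreated Pirc rats 11, 15, 19 and 23 and at 0.46, 0.87, 0.00 and 3.12 in DSS-treated Pirc rats 12, 16, 20 and 24. Rat 25 was the low rat of its group and so was rat 26, while rat 24 was the high rat among DSS-treated Pirc rats, so that all groups overlapped. Group means stood in the same order as for the Nr1d genes, from 3.07 ± 1.35 (SD, n = 4) in DSS-treated wild type rats to 1.11 ± 1.38 in DSS-treated Pirc rats, again each within 1 SD of the next. Tef kept the order of group means of Dbp and ran from -1.32 in rat 20 to 1.62 in rat 22. The 6 rats lowest in Dbp were also the 6 lowest in Tef and in Nr1d2, and 5 of them were among the 6 lowest in Nr1d1 and in Per2. The within-group SD of Dbp (1.25) exceeded that of 99.7% of the probes well above background on all arrays; for Nr1d1 the share was 99.3%, for Tef 99.0%, for Bmal1 98.3%, for Nr1d2 96.9% and for Per2 95.4%.

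**Figure D1:**
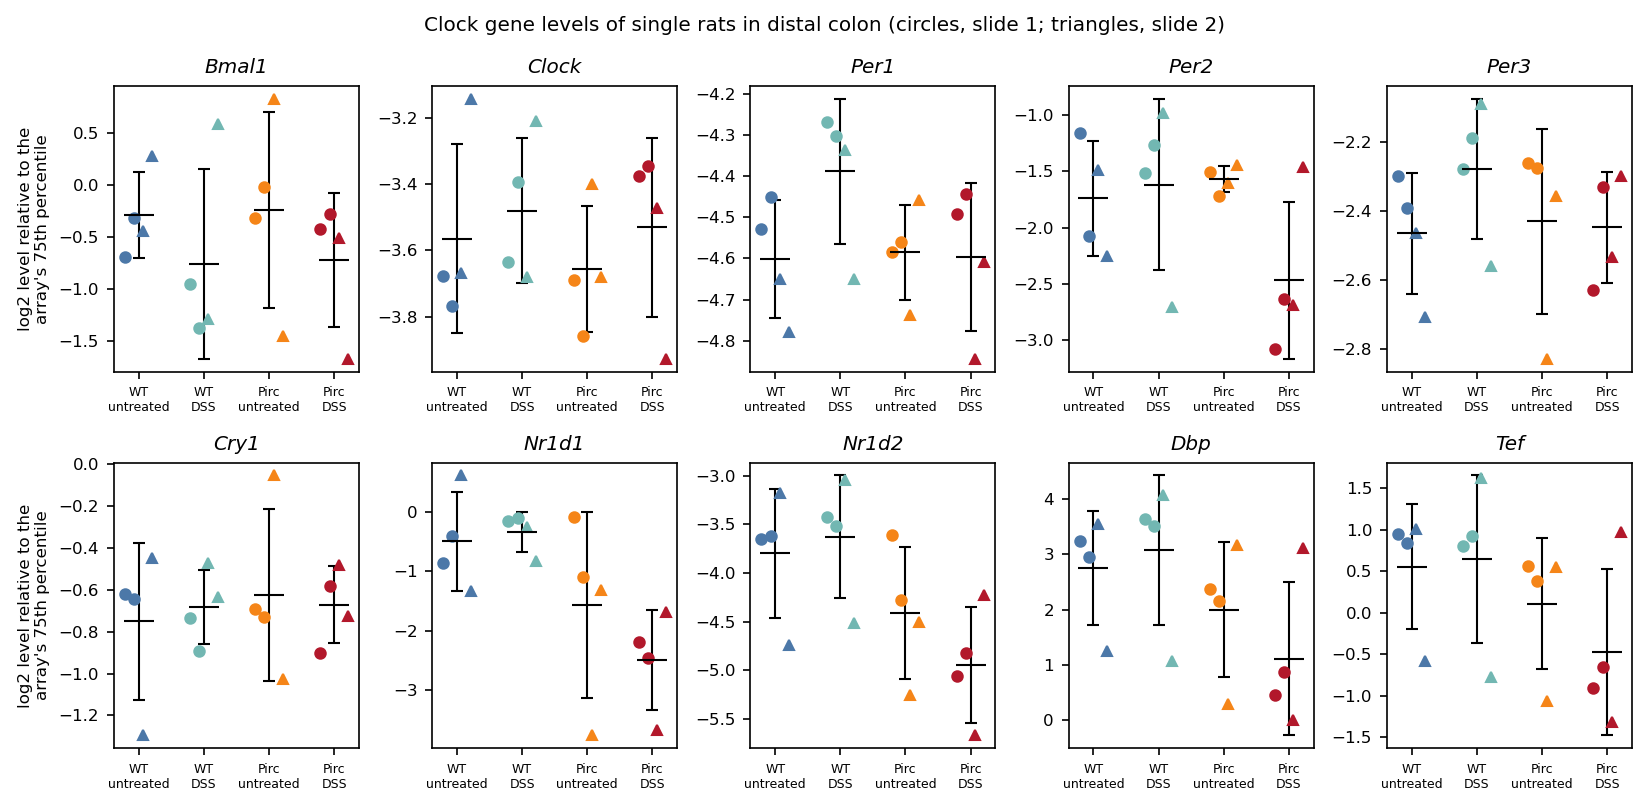
Level of each clock gene in each rat, as log2 intensity relative to the array's 75th percentile, by group; circles are rats on slide 1, triangles rats on slide 2, and bars the mean ± SD of 4 rats. The 4 DSS-treated Pirc rats lie at -1.68 or lower for Nr1d1, below every DSS-treated wild type rat, while for Dbp and Bmal1 every group overlaps every other. The share of all probes that separate groups in this way was not counted.

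Whether DSS left the clock genes changed was asked over both genotypes and within each. Across both genotypes limma placed 0 of the 10 genes past the threshold of an adjusted p of 0.05, against 17.2% of all probes; 0 of the genes had an unadjusted p under 0.05, against 28% of all probes, and the linear model without moderation also gave 0. The log2 change was -0.47 for Bmal1 (SE 0.35, adjusted p = 0.443), -0.39 for Per2 (SE 0.27, adjusted p = 0.404), -0.39 for Nr1d1 (SE 0.46, adjusted p = 0.666) and -0.28 for Dbp (SE 0.57, adjusted p = 0.806). The median change of the 10 genes was -0.21 and that of all probes 0.06. Within Pirc rats these medians were -0.51 and 0.04, and within wild type rats 0.14 and 0.09.

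Within Pirc rats limma placed 0 of the 10 genes past the threshold, against 14.7% of all probes, with 1 gene (Per2) at an unadjusted p under 0.05 (27.1% of all probes) and 0 by the model without moderation. Per2 differed by -0.90 (SE 0.38, 95% interval -1.72 to -0.09, adjusted p = 0.137), lower in 3 of 4 DSS-treated rats than in any untreated one. For Nr1d1 the change was -0.93 (SE 0.64, adjusted p = 0.406), for Dbp -0.89 (SE 0.81, adjusted p = 0.557), for Tef -0.58 (SE 0.58, adjusted p = 0.603), for Nr1d2 -0.54 (SE 0.42, adjusted p = 0.478) and for Bmal1 -0.48 (SE 0.50, adjusted p = 0.620). On slide 1 alone 3 of the 10 genes passed, against 6.74% of all probes. These were Dbp (-1.61, adjusted p = 0.0153), Tef (-1.25, adjusted p = 0.0173) and Nr1d1 (-1.73, adjusted p = 0.0455). On slide 2 alone limma placed 0 past the threshold, against 1.22%, and the same changes were -0.17, 0.085 and -0.135. With single rats left out Nr1d1 ranged from -1.66 to -0.44, Dbp from -1.56 to -0.50, Tef from -1.07 to -0.30 and Bmal1 from -0.89 to -0.12. In those fits the adjusted p fell as low as 0.0270 for Per2 and 0.0471 for Nr1d1.

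Within wild type rats limma placed 0 of the 10 genes past the threshold, against 3.84% of all probes, with 0 at an unadjusted p under 0.05 (16.8% of all probes) and 0 by the model without moderation. Bmal1 differed by -0.47 (SE 0.50, adjusted p = 0.737) and Dbp by 0.32 (SE 0.81, 95% interval -1.41 to 2.05, adjusted p = 0.882). The difference between the DSS effects of the genotypes was tested directly, and limma placed 0 of the 10 genes past the threshold, against 0.0428% of all probes, with 0 at an unadjusted p under 0.05 (10.6% of all probes) and 0 without moderation. Its estimate was -1.21 for Dbp (SE 1.15, adjusted p = 0.757), -1.09 for Nr1d1 (SE 0.91, adjusted p = 0.713), -1.03 for Per2 (SE 0.54, adjusted p = 0.524) and -0.71 for Nr1d2 (SE 0.59, adjusted p = 0.716).

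The genotype comparison asked whether normal colon of Pirc rats differed from that of wild type rats. The study reports that Pirc rats develop colonic adenomas, and the labels give no tumor count per rat. Mutant Apc and the presence of tumors in the same colon therefore cannot be told apart. Over both treatments Nr1d1 and Nr1d2 were lower in Pirc rats, and these 2 of the 10 genes stand against 17.5% of all probes past the threshold, or 8.27% lower; with a factor of 2 also required the share was 2% and 1 gene, Nr1d1, passed. Nr1d1 fell by 1.61 on the log2 scale (SE 0.46, 95% interval -2.59 to -0.64, adjusted p = 0.0248), a factor of 3.06. Nr1d2 fell by 0.96 (SE 0.30, 95% interval -1.60 to -0.33, adjusted p = 0.0371), a factor of 1.95. Dbp differed by -1.35 (SE 0.57, adjusted p = 0.123), Tef by -0.78 (SE 0.41, adjusted p = 0.216) and Per2 by -0.34 (SE 0.27, adjusted p = 0.405), which did not pass. At an unadjusted p under 0.05 stood 3 of the 10 genes, against 30.7% of all probes. Counted without direction, clock genes were thus called about as often as probes in general. Bmal1 differed by 0.04 (SE 0.35, 95% interval -0.71 to 0.79, adjusted p = 0.946). In bulk tissue, fewer cells of a type and less RNA per cell cannot be told apart.

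The Nr1d1 call held with slide as a block (adjusted p = 0.0233) but not on slide 1 alone (-1.07, adjusted p = 0.122) or slide 2 alone (-2.16, adjusted p = 0.247), where each group has 2 rats. For Nr1d2 the blocked adjusted p was 0.0339 and the values on the separate slides were -0.89 (adjusted p = 0.0993) and -1.04 (adjusted p = 0.383); without moderation its adjusted p was 0.0565, and 1 of the 10 genes passed against 18.3% of all probes. Each row of each slide held 1 rat of every group, and with these 4 sets of arrays as a block Nr1d1 kept its call (adjusted p = 0.0365) and Nr1d2 did not (adjusted p = 0.0526). Leaving out DSS-treated Pirc rat 20 or untreated wild type rat 21 left 0 of the 10 genes past the threshold, against 13.6% and 12.5% of all probes, and leaving out each of 9 other rats (12, 13, 14, 15, 17, 18, 19, 22 and 23) left 1, against 13.1% to 16.1%.

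Among untreated rats limma placed 0 of the 10 genes past the threshold, as it did 0% of all probes; 0 had an unadjusted p under 0.05 (10.2% of all probes) and the model without moderation gave 0. The change was -1.07 for Nr1d1 (SE 0.64, adjusted p = 0.605), -0.61 for Nr1d2 (SE 0.42, adjusted p = 0.663) and -0.75 for Dbp (SE 0.81, adjusted p = 0.823). Without Pirc rat 19 the Nr1d1 change was -0.34. With single rats left out the change ranged from -0.92 to -0.33 for Nr1d2 and from -1.245 to -0.176 for Dbp.

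Among DSS-treated rats Nr1d1 and Nr1d2 were lower in Pirc rats, 2 of the 10 genes against 18.2% of all probes, or 8.76% lower. Nr1d1 fell by 2.16 (SE 0.64, 95% interval -3.54 to -0.78, adjusted p = 0.0315), a factor of 4.47. Nr1d2 fell by 1.32 (SE 0.42, 95% interval -2.22 to -0.42, adjusted p = 0.0419), a factor of 2.49. Dbp differed by -1.96 (SE 0.81, adjusted p = 0.111), Tef by -1.12 (SE 0.58, adjusted p = 0.210) and Per2 by -0.85 (SE 0.38, adjusted p = 0.140), with Dbp and Per2 below an unadjusted p of 0.05 and none of the 3 past the threshold. In this comparison 4 of the 10 genes had an unadjusted p under 0.05, against 31.3% of all probes. Counted without direction, both counts again lay near the rate of probes in general. Bmal1 differed by 0.04 (SE 0.50, adjusted p = 0.968). These 8 rats are also in the comparison over both treatments, and the Pirc rats among them in the DSS comparison within Pirc rats.

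With slide as a block Nr1d1 had an adjusted p of 0.0288 and Nr1d2 of 0.0380; with the 4 sets of arrays as a block they were 0.0432 and 0.0575. With normexp background correction Nr1d2 differed by -0.78 (adjusted p = 0.0524) and Nr1d1 by -1.91 (adjusted p = 0.0206). On slide 1 alone the Nr1d1 change was -2.19 (adjusted p = 0.0569) and on slide 2 alone -2.13 (adjusted p = 0.351), and for Nr1d2 they were -1.47 (adjusted p = 0.0592) and -1.17 (adjusted p = 0.460). Slide 1 alone placed 2 of the 10 genes past the threshold, against 1.02% of all probes, Dbp (-2.91, adjusted p = 0.0229) among them. Without moderation 0 of the 10 genes passed, against 19% of all probes (Nr1d1 adjusted p = 0.0505, Nr1d2 0.0624). Leaving out any of DSS-treated rats 12, 14, 18, 20 and 22 also gave 0, against 10.3% to 13.7% of all probes. Leaving out rat 13, 15, 16 or 17 gave 1 (16% to 22.4%), while leaving out rat 24 (19%) or rat 26 (17.6%) gave 4. For the 2 rats whose profiles resembled another group, leaving out rat 23 gave 2 genes here (19.8% of all probes) and 1 in the comparison over both treatments (16.1%), and leaving out rat 26 gave 4 here and 3 there (17.9%).

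**Figure D2:**
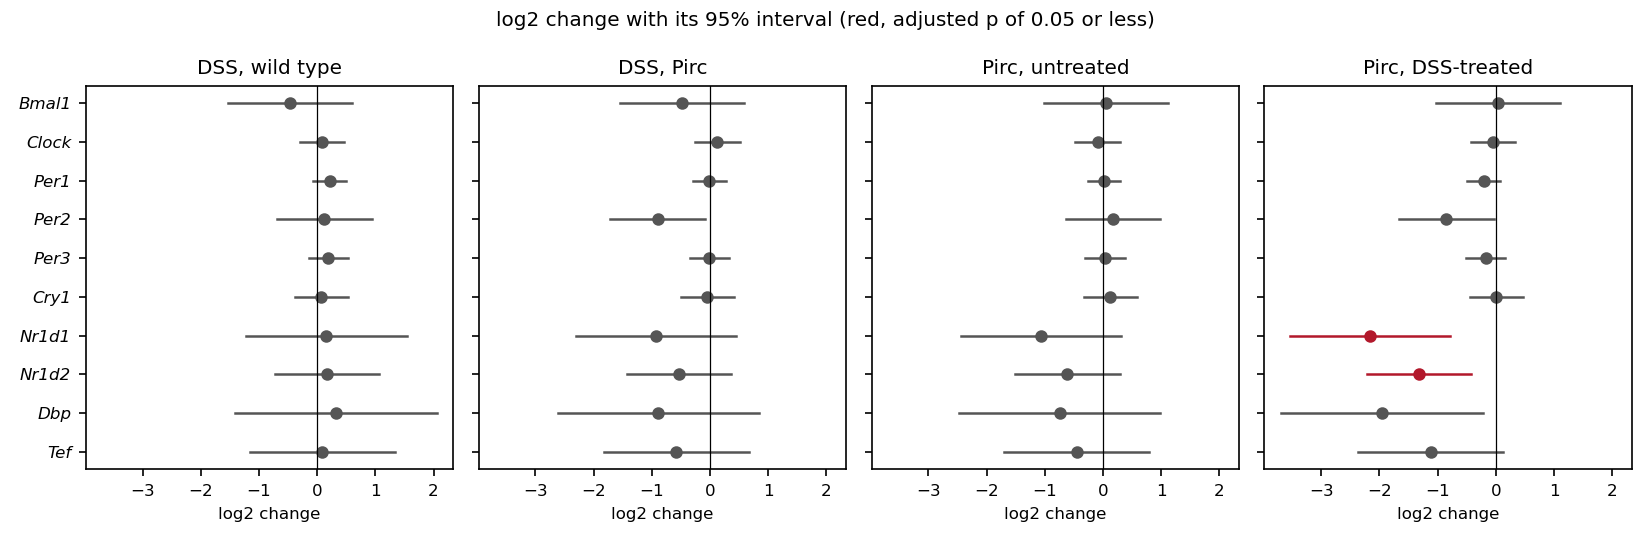
log2 change of each clock gene in 4 comparisons, with points for the estimate and lines for its 95% interval from limma over 16 arrays; red marks an adjusted p of 0.05 or less. Among DSS-treated rats Nr1d1 (-2.16) and Nr1d2 (-1.32) are red, and the intervals of all 10 genes span 0 in the DSS comparison within wild type rats and in the Pirc comparison among untreated rats.

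Relative to their groups, rats high in Bmal1 were low in Dbp, Tef and Per2. Over the 16 rats, each value taken relative to its group mean, Bmal1 and Dbp had a Pearson r of -0.915 (two-sided permutation test within groups, p = 0.00073) and a Spearman rho of -0.935 (p = 0.00051). Without the 2 rats farthest from the median in Bmal1 r was -0.907. For Tef r was -0.860 (p = 0.0014) and rho -0.826 (p = 0.0013), with r = -0.883 without those 2 rats. For Per2 r was -0.774 (p = 0.00044) and rho -0.838 (p = 0.00032), with r = -0.777 without them. Per3 (r = -0.746, p = 0.0068, rho = -0.615, p = 0.030, r = -0.750 without the 2 rats) and Nr1d2 (r = -0.673, p = 0.015, rho = -0.606, p = 0.025, then -0.739) followed in the same direction.

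For Nr1d1 the relation was weaker, with r = -0.547 (p = 0.065), rho = -0.497 (p = 0.067) and r = -0.615 without the 2 rats. For Per1, r was -0.589 (p = 0.036), rho -0.379 (p = 0.18) and r then -0.382, so this relation rests on those rats. Clock ran with Bmal1 (r = 0.690, p = 0.0059, rho = 0.653, p = 0.012, then 0.750), and Cry1 had r = 0.516 (p = 0.063), rho = 0.397 (p = 0.16) and then 0.478. In all, 7 of the 9 other members were negative and 2 positive; Clock and Cry1 were positive in all 4 groups, and 6 of the 7 negative genes were negative in all 4. These are 9 of 14 relations with Bmal1 that were given a permutation test; r alone was also computed for 12153 probes, and the values adjusted over all probes follow from the slopes.

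Within slides the relation was uneven. On slide 2, where the 2 rats of a group differed by 0.72 to 2.29 in Bmal1 and by 2.29 to 3.11 in Dbp, r between them was -0.945. On slide 1, where the 2 rats of a group differed by only 0.15 to 0.42 in Bmal1 and 0.13 to 0.41 in Dbp, r was -0.148. The slope of Dbp on Bmal1 was -0.13 on slide 1 (adjusted p = 0.9999) and -1.64 on slide 2 (adjusted p = 0.832). Tef had -0.461 on slide 1 and -0.917 on slide 2, Per2 -0.636 and -0.758, and Nr1d1 -0.253 and -0.850. Clock (-0.892 and 0.843) and Per1 (0.879 and -0.981) changed sign between slides, and the other 7 kept theirs. On slide 2, Dbp was low in Pirc rats 19 and 20 and wild type rats 25 and 26 and high in wild type rats 21 and 22 and Pirc rats 23 and 24, whereas on slide 1 the low rats were the DSS-treated Pirc rats 12 and 16.

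Fitted across all probes as a slope on the Bmal1 level with the 4 group means in the model, limma placed 1 of the 9 other members past the threshold, Dbp, against 0.0132% of the 30365 probes tested. Dbp changed by -1.51 per unit of Bmal1 (SE 0.19, adjusted p = 0.0243). The only other gene past the threshold was Ciart, whose protein, also called CHRONO, represses BMAL1 and CLOCK, with a slope of -2.08 (SE 0.27, adjusted p = 0.0243). The 4 probes past the threshold were the 3 of Dbp and the 1 of Ciart. Tef had a slope of -1.01 (SE 0.17, adjusted p = 0.139), Nr1d1 -0.71 (SE 0.30, adjusted p = 0.691), Per2 -0.59 (SE 0.14, adjusted p = 0.427), Nr1d2 -0.57 (SE 0.18, adjusted p = 0.598) and Per3 -0.20 (SE 0.07, adjusted p = 0.626). The other 2 Per3 probes had steeper slopes, -0.87 (SE 0.16, adjusted p = 0.215) and -0.63 (SE 0.13, adjusted p = 0.292), which did not pass. Clock (0.22, adjusted p = 0.633), Cry1 (0.21, adjusted p = 0.768) and Per1 (-0.12, adjusted p = 0.801) were shallower. The Dbp call was lost on either slide alone, with the 4 sets of arrays as a block (-1.51, adjusted p = 0.0813), without moderation, without group means, and without any one of rats 13, 14, 17, 19, 22, 24, 25 and 26.

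**Figure D3:**
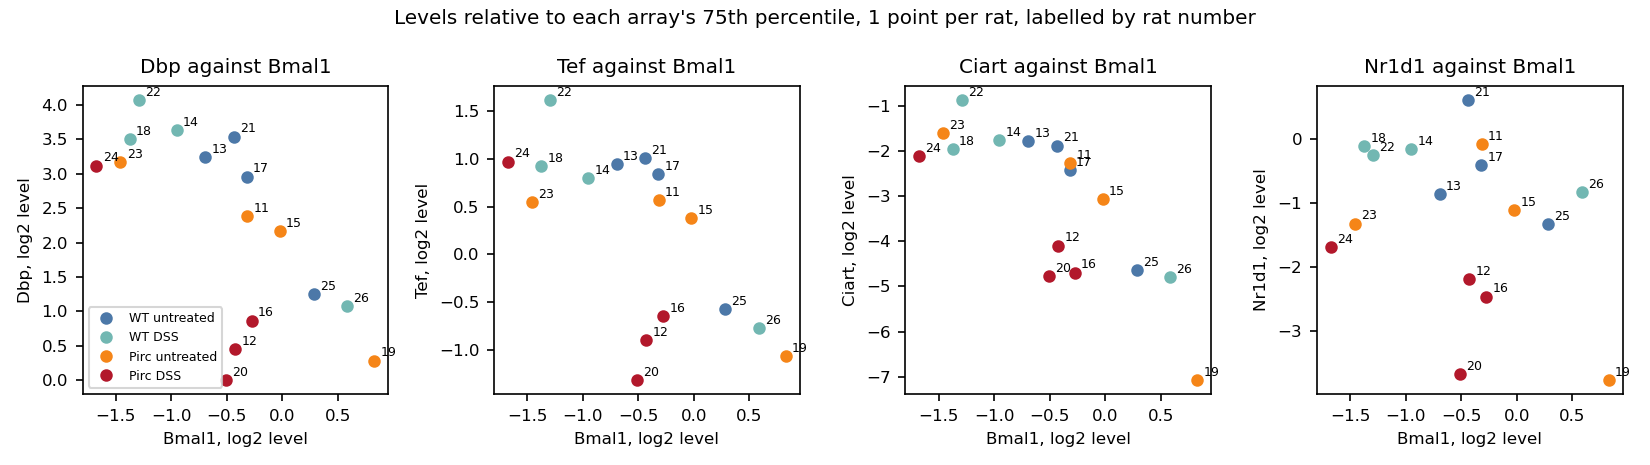
Levels of Dbp, Tef, Ciart and Nr1d1 against Bmal1, 1 point per rat, both axes as log2 intensity relative to the array's 75th percentile, colored by group. Rats 19, 25 and 26, with Bmal1 between 0.28 and 0.83, are low in Dbp (0.29 to 1.25), and DSS-treated Pirc rats 12, 16 and 20 are low in Dbp (0.00 to 0.87) at Bmal1 levels between -0.51 and -0.28.

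With the Bmal1 level added as a covariate, an alternative chosen after the data had been seen, rats were compared at equal Bmal1. The model gives each probe a common slope for all rats, although the slope of Dbp was -0.13 on slide 1 and -1.64 on slide 2. The slopes come from the same 16 rats, so the calls below are not independent support for a difference. In the Pirc comparison over both treatments 4 of the 9 other members then passed, against 17.9% of all probes: Dbp (-1.29, adjusted p = 0.00479), Nr1d2 (-0.94, adjusted p = 0.0146), Nr1d1 (-1.58, adjusted p = 0.0158) and Tef (-0.74, adjusted p = 0.0367). The adjusted p of Dbp in this comparison ranged from 0.0388 to 0.229 when single rats were left out of the model without the covariate. The model with the covariate was not refitted with rats left out, with a block or without moderation. Within Pirc rats 3 of the 9 passed for DSS, against 13.6% of all probes: Dbp (-1.61, adjusted p = 0.00947), Per2 (-1.18, adjusted p = 0.0103) and Tef (-1.07, adjusted p = 0.0456). Over both genotypes 2 of the 9 passed for DSS, Per2 (-0.67, adjusted p = 0.0326) and Dbp (-0.997, adjusted p = 0.0194), against 15.6% of all probes. Among DSS-treated rats 5 of the 9 passed for Pirc, against 18.6%: Dbp, Nr1d2, Nr1d1, Tef and Per2. At equal Bmal1 limma placed 0 of the 9 past the threshold for DSS within wild type rats (3.02% of all probes), for Pirc among untreated rats (0%) and for the difference between DSS effects (0.0659%).

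Other genes of the clock loop were taken from a list of 22, of which 16 could be measured. For DSS over both genotypes 2 of these 16 were lower and 0 higher, against 6.99% of all probes lower and 10.2% higher. Npas2, a relative of Clock that also pairs with BMAL1, fell by 0.93 (SE 0.18, adjusted p = 0.00242), and Btrc, part of the ligase that marks PER proteins for breakdown, fell by 0.46 (SE 0.09, adjusted p = 0.00257). Within Pirc rats the same 2 genes were lower, against 6.51% of all probes, Npas2 by a log2 change of -1.52 (SE 0.26, adjusted p = 0.00126) and Btrc of -0.43 (SE 0.13, adjusted p = 0.0360), and within wild type rats Btrc alone was (-0.49, SE 0.13, adjusted p = 0.0465), against 0.899%. For the difference between the DSS effects of the genotypes 0 of the 16 passed, against 0.0428% of all probes. Npas2 lay between -1.25 and -0.69 in the 4 DSS-treated Pirc rats and between -0.24 and 1.17 in the other 12. The share of all probes that set these 4 rats apart in this way was not counted. For Pirc over both treatments 2 were higher and 2 lower, against 9.26% and 8.27% of all probes: Timeless (0.80, SE 0.19, adjusted p = 0.0110) and Tipin (0.42, SE 0.13, adjusted p = 0.0399), whose proteins protect replication forks, were higher, and Npas2 (-0.58, SE 0.18, adjusted p = 0.0392) and the casein kinase Csnk1d (-0.22, SE 0.07, adjusted p = 0.0498) were lower. Among DSS-treated rats Timeless (0.98, adjusted p = 0.0209) was higher, and Npas2 (-1.17, adjusted p = 0.00755) and Gsk3b (-0.52, adjusted p = 0.0257) were lower. These 1 higher and 2 lower of the 16 stand against 9.47% and 8.76% of all probes. The median change of the 16 for Pirc over both treatments was -0.13, and -0.06 for all probes.

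All 18 genes listed as clock-controlled outputs were measured. For DSS over both genotypes 2 were higher and 2 lower, against 10.2% and 6.99% of all probes. Gpam (0.50, SE 0.12, adjusted p = 0.00807) and Tspan4 (0.45, SE 0.13, adjusted p = 0.0317) were higher, and Tsc22d3, which encodes the glucocorticoid-induced leucine zipper (-0.77, SE 0.17, adjusted p = 0.00485), and Pck1, an enzyme of gluconeogenesis (-1.35, SE 0.35, adjusted p = 0.0146), were lower. For Pirc over both treatments, where 9.26% of all probes were higher and 8.27% lower, 1 was higher, Dtx4 (0.34, SE 0.10, adjusted p = 0.0350), and 3 were lower: Tsc22d3 (-1.15, SE 0.17, adjusted p = 0.00113), Pck1 (-1.501, SE 0.35, adjusted p = 0.00995) and Por (-0.43, SE 0.11, adjusted p = 0.0144). Of the 12 genes listed as responsive to glucocorticoids, 1 was higher and 3 lower for DSS over both genotypes, and 1 was higher and 2 lower for Pirc over both treatments, against the same shares of all probes. Cebpd was higher in both comparisons (1.40, SE 0.18, adjusted p = 0.000131, and 2.09, SE 0.18, adjusted p = 4.9e-05). The metallothionein genes Mt1 (-1.25, adjusted p = 0.00264) and Mt2A (-1.44, adjusted p = 0.00845) were lower after DSS, and Sgk1, a kinase that regulates sodium transport (-0.996, SE 0.16, adjusted p = 0.00202), was lower in Pirc rats. Tsc22d3 is on both lists and counts under each. Of the 18 outputs and of the 12 glucocorticoid genes 0 had a slope on Bmal1 past the threshold.

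Markers of other cells differed between the same groups. The counts below stand against 10.2% of all probes higher and 6.99% lower with DSS over both genotypes, and 9.47% higher and 8.76% lower in Pirc rats among DSS-treated ones. Of 7 measured markers of stratified epithelium, 6 were higher with DSS over both genotypes and 2 were higher in Pirc than in wild type rats among DSS-treated rats, Krt4 by 3.87 (SE 0.93, adjusted p = 0.0115). The mean level of the 7 was -0.17 in DSS-treated Pirc rats and -2.92 in DSS-treated wild type rats, against -5.67 and -5.97 in the untreated groups. The DSS-treated wild type rats 14, 18, 22 and 26 stood at -3.42, -2.36, 0.03 and -5.92, so that rat 26 lay at the level of untreated rats and rat 22 among the DSS-treated Pirc rats (-1.34 to 0.63). Krt14 was the brightest of these markers and Ivl was not well above background on any array. Of 8 neutrophil markers 5 were higher with DSS and 2 in Pirc rats among DSS-treated ones, with S100a9 the brightest (3.25, SE 0.48, adjusted p = 0.00103) and Elane not well above background on any array. Of 13 colon epithelium markers 4 were lower in Pirc rats among DSS-treated ones and 0 higher, Slc26a3, an anion exchanger of surface colonocytes, by -2.25 (SE 0.33, adjusted p = 0.000932). Of 9 fibroblast and matrix markers all 9 were higher with DSS, and 1 was lower in Pirc rats among DSS-treated ones. For macrophages 7 of 10 were higher with DSS, for T and natural killer cells 4 of 12, and for B and plasma cells 3 of 5. Smooth muscle had 2 of 10 higher and 1 lower, and enteric neurons and glia 1 of 10 higher and 1 lower. Among DSS-treated rats, Pirc rats had 1 marker higher in each of these lists except smooth muscle, which had 0. There 1 neuron and glia marker was also lower. In Pirc rats over both treatments 3 colon epithelium, 1 fibroblast and matrix and 1 neuron and glia marker were lower. Higher there were 2 neutrophil, 2 macrophage and 1 T and natural killer marker. Of all probes 9.26% were higher and 8.27% lower in that comparison. The part of these cells in the lower Nr1d1 and Nr1d2 levels of Pirc rats was not tested.

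For slopes on Bmal1 limma placed 0 markers of any list past the threshold. At an unadjusted p under 0.05 stood 3 of the 10 smooth muscle markers, all positive, and 5 of the 7 of stratified epithelium, all negative, against 3.69% of all probes positive and 3.07% negative. The median slope was 0.31 for the former list and -1.13 for the latter. In the mean level of the smooth muscle markers rat 25 stood apart from its group (-2.03, the others -4.27 to -3.95), as did rat 26 (-1.47, the others -3.90 to -3.18), both the highest of their groups in Bmal1 and the lowest in Dbp. Rat 16 also stood above its group in these markers (-2.47, the others -4.09 to -3.70). Rat 19, the highest of all in Bmal1, was the lowest in them (-4.47). Over the 16 rats, each taken relative to its group, r between the mean of the smooth muscle markers and Bmal1 was 0.539. For the mean of the stratified epithelium markers r was -0.587, and for B and plasma cells 0.519. For the other marker lists it lay between -0.32 and 0.31. The part of tissue make-up in the relation of Dbp to Bmal1 was not tested.

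The genes most like Bmal1 over the 16 rats, by Pearson r of values relative to the group mean among the 12153 probes that were well above background on every array and matched 1 gene symbol, Bmal1's own left out, were Leo1 (0.936), Nf1 (0.913), Ezh2 (0.909), Il33 (0.900) and Lonrf3 (0.870). The most opposite were Dbp (-0.915), Ciart (-0.907), Ppm1a (-0.871), Nradd (-0.865) and Tef (-0.860). These are the ends of a ranking: 0 probes had a positive slope on Bmal1 past the threshold, and only those of Dbp and Ciart a negative one. Per2 ranked 35th from the lowest, Per3 51st and Nr1d2 136th.

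Because Dbp, Tef and Ciart moved together against Bmal1, the 250 bases before the start of each of these genes were searched on both strands, in RefSeq promoters of the GRCr8 assembly, for the E-box CACGTG, for 4 forms of the D-box bound by DBP and TEF (TTATGTAA, TTACGTAA, TTATATAA and TTACATAA) and for the element bound by the REV-ERB and ROR receptors (AANT followed by AGGTCA or by GGGTCA, N being any base). Of 33469 promoters, 5.59% hold the E-box, 1.36% a D-box and 0.40% the REV-ERB/ROR element. Of the 10 members 9 have an entry in the table, and Cry1 has none. Tef and 1 of the 2 starts of Nr1d1 hold an E-box, Per2 holds a D-box, Bmal1 holds the REV-ERB/ROR element, and Clock, Per1, Per3, Nr1d2 and Dbp hold none of the 3 in this window. Ciart holds 3 E-boxes, whose first bases lie at -93, -35 and -21 relative to its start. Of the 5 genes most like Bmal1, Leo1 holds the REV-ERB/ROR element, Lonrf3 an E-box and a D-box, and the other 3 none; of the 5 most opposite, Ciart and Tef hold E-boxes and the other 3 none of the 3 motifs. A match is a description of the letters, not of binding. The stretches below are upstream of the annotated start, written 5′ to 3′ on the strand of the gene, with the matched letters in capitals: Ciart at chr2:186112247-186112366 (minus strand), Bmal1 at chr1:176766268-176766327 (plus), Leo1 at chr8:85079896-85079975 (plus), Tef at chr7:115206597-115206676 (plus) and Per2 at chr9:99497144-99497223 (minus).
Ciart: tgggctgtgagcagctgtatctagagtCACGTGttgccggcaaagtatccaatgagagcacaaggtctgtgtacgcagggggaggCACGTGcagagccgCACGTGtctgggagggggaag
Bmal1: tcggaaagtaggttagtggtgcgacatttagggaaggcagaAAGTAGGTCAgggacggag
Leo1: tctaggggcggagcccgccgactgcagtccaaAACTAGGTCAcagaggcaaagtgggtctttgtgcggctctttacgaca
Tef: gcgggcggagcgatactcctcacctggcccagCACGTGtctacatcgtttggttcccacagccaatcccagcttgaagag
Per2: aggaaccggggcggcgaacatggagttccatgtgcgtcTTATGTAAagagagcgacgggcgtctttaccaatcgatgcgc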

How the data were processed

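Per the file headers the deposited values are Agilent Feature Extraction 10.7.3.1 output; its processed signal, an intensity from which background had been subtracted, was used unlogged and unscaled as deposited. The submitters also name Partek. Of 62976 spots per array, 4259 are controls and were dropped. Each probe's level is the mean, without spots flagged as outliers, of log2 intensity minus the log2 of that array's 75th percentile, which before scaling ran from 875 to 2194. Spots well above background made up 71.1% to 80.3% of an array. Accessions of 18006 probes matched 1 RefSeq symbol (GRCr8 table) and 12361 matched none; the array was designed on rn4, so no probe positions are given, and promoter positions are those of GRCr8.

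For 7 comparisons and for slopes on Bmal1, limma 3.58.1 (R 4.3.3) fitted 1 mean per group to the 16 arrays, with Benjamini-Hochberg adjustment over all probes. The fit was tested on simulated data. Correlations used 100000 two-sided permutations within groups. With 16 arrays precision is limited. The members and lists were chosen with earlier results of these data known. Genes named beside the members come from 3 lists, up to 6 per list and comparison past the threshold with the smallest adjusted p. Genes of the output and glucocorticoid lists are named only for DSS over both genotypes and Pirc over both treatments. The 5 highest and 5 lowest in r with Bmal1 and some cell markers are also named. Alternatives were quantile normalization, normexp (offset 50, on the median signal), scaling to bright probes, a filter on dim probes, slide and array row as blocks, each slide alone, flagged spots kept, no moderation, other thresholds, probes averaged per gene, only the compared groups, each rat left out and, for slopes, no group means or a slope on Dbp. The Bmal1 covariate and the block of slide with array row were added after the data had been seen. Figures and correlations used Python 3.11.15, numpy 2.4.6 and scipy 1.17.1.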

Additional observations from a re-analysis of the deposited data

Results flagged for a closer look

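In 40 sets of 4 rats (10 genes in 4 groups), 5 values lay so far from the other 3 rats that the gap passed Dixon's 95% limit as a share of the range; chance gives about 1 set in 20, or 2 here. They belong to 3 rats. Untreated wild type rat 25 stood at -3.14 for Clock, where the other 3 lay between -3.77 and -3.67, and at -0.58 for Tef, where the others lay between 0.84 and 1.01. Untreated Pirc rat 19 stood at -2.83 for Per3, below the others at -2.36 to -2.26, and at -1.06 for Tef, below the others at 0.38 to 0.57. DSS-treated Pirc rat 24 stood at -1.68 for Bmal1, below the others at -0.51 to -0.28. All 3 rats lie on slide 2. Without rat 24 the number of clock genes past the threshold for Pirc among DSS-treated rats was 4 (19% of all probes) in place of 2 (18.2%).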

How the results depend on the processing

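Counts of clock genes past the threshold moved by over 1.5 times in 26 cases in which no rat was left out, and stayed in 98. Each is followed by the share of all probes past the same threshold. On slide 1 alone DSS over both genotypes had 1 (9.88%), DSS within Pirc rats had 3 (6.74%), Pirc over both treatments had 1 (0.0395%) and the slope on Bmal1 had 0 (0%). On slide 2 alone they were 0 for Pirc over both treatments (0.263%), 0 for Pirc among DSS-treated rats (0.375%) and 0 for the slope (0%). Without moderation they were 1 for Pirc over both treatments (18.3%), 0 for Pirc among DSS-treated rats (19%) and 0 for the slope (0%), and with a factor of 2 required the first was 1 (2%). With the threshold at 0.20 DSS within Pirc rats had 1 (28.3%), Pirc among DSS-treated rats had 4 (34.9%) and the slope had 2 (0.0296%). With normexp they were 1 for Pirc among DSS-treated rats (14.2%) and 2 for the slope (0.0165%), and with only the compared groups in the fit 1 for Pirc among DSS-treated rats (7%). The slope count was 0 (0%) without group means, and 3 (0.0823%) when slopes were taken on Dbp. With the Bmal1 level as a covariate, chosen after the data had been seen, DSS had 2 over both genotypes (15.6%) and 3 within Pirc rats (13.6%), while Pirc had 5 among DSS-treated rats (18.6%) and 4 over all (17.9%). With the 4 sets of arrays (a row of a slide each) as a block, also chosen late, Pirc had 1 in each of these 2 comparisons (16.8% and 15.8%) and the slope had 0 (0.00329%). A fit on 1 slide has 8 rats, and the fit with only the compared groups also has fewer rats; otherwise the cause was not tested.

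With single rats left out the count ranged from 0 to 1 for DSS within Pirc rats (9.14% to 17.4% of all probes), from 0 to 3 for Pirc over both treatments (12.5% to 21.8%), from 0 to 4 for Pirc among DSS-treated rats (10.3% to 22.4%) and from 0 to 2 for the slope (0% to 0.0231%), and was 0 throughout for the other 4 comparisons.

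Values that changed sign were all short of the threshold. Bmal1 for Pirc over both treatments was -0.49 on slide 2 alone and ranged from -0.14 to 0.27 with single rats left out; among DSS-treated rats it was -0.74 on slide 2 alone, -0.004 with normexp and -0.17 to 0.49 with single rats left out. Dbp for DSS over both genotypes was 0.004 on slide 2 alone and -0.62 to 0.049 with single rats left out, and within wild type rats -0.38 with the Bmal1 covariate and -0.18 to 0.99 with single rats left out. On slide 2 alone Tef for DSS within Pirc rats was 0.085, Per2 for Pirc over both treatments 0.055 and the difference between DSS effects for Nr1d1 0.047. On slide 1 alone Nr1d1 for Pirc among untreated rats was 0.04, and the slopes of Clock and Per1 on Bmal1 were -0.42 and 0.14. The cause was not tested. No pairing by rat, litter or day was possible. No rat number occurs in more than 1 group, and the labels name no shared litter or day. Rats were matched by array position only, with the sets of arrays in a row of a slide as a block. Signal over background limited the second Per3 probe on 1 array.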
